A study of Mus musculus with 144 samples.

Results

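Skeletal muscle of 24-month-old mice carrying the naked mole-rat hyaluronan synthase 2 transgene (nmrHAS2) was compared with skeletal muscle of control mice of the same age (CreER) across all genes. The comparison took every muscle library labelled as old: 6 of nmrHAS2 and 6 of CreER animals, 3 of each sex in each genotype, so 12 of the 144 libraries of the study. The study set out to learn what lies behind the longer life and better late-life health of nmrHAS2 mice, and it sequenced RNA of several tissues at 6 and 24 months. CreER is a Cre recombinase that becomes active when tamoxifen is given, and as known of the study the transgenic animals carry it too, so that the controls differ by lacking the transgene. The labels give genotype, age and sex. The sources used here do not give the promoter of the transgene, the mouse strain, the tamoxifen treatment, which muscle was taken or which animal each library came from. The p-values therefore reflect only how much the libraries vary, and part of that may be technical.

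Hyaluronan is a long, unbranched sugar polymer of the extracellular matrix. Hyaluronan synthases make it at the cell membrane from 2 sugar nucleotides, hyaluronidases and lysosomal enzymes break it down, and cells sense it through receptors such as CD44. In skeletal muscle it surrounds fibres, satellite cells and the connective tissue sheaths, while the fibres themselves are defined by their sarcomere proteins and by how much of their energy comes from mitochondria or from glycolysis.

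Library totals at 24 months ran from about 18000000 to 102500000 counts. The summed level of 12 skeletal muscle markers was 50900 to 77740 CPM (counts scaled to the library total) in nmrHAS2 and 56390 to 69110 CPM in 5 of the 6 CreER libraries, so the tissue label held, and 8 heart markers together were at 11.2 to 44.2 CPM. The sixth CreER library, old male CreER 3, had 26130 CPM of the muscle markers. The TMM factor of this library was 1.66, against 0.935 to 1.15 in the other old libraries. Its CPM are therefore lower than counts scaled to its total alone. Its 5 neutrophil genes (S100a8, S100a9, Ltf, Ngp and Camp) summed to 3089 CPM, against 1.34 to 4.26 CPM in the other CreER and 1.19 to 10.9 CPM in the nmrHAS2 libraries. Its 13 erythroid genes were at 13810 CPM, against 83.6 to 599.5 CPM in the others of its genotype. Its median correlation with the other old libraries, across genes on the log2 scale, was 0.823, while the others had 0.898 to 0.963. Results are therefore given with and without it.

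A second library must be read beside it. Old male CreER 3 and old male nmrHAS2 3 were the only old muscle libraries with almost no counts on RNAs that lack a poly(A) tail (0.00715 and 0.000893% of the total, against 11.7 to 18.9% in the other 10). Both also held transcripts of kidney, a gene group picked after the values were seen: Kap, a protein of the proximal tubule, was at 373 CPM in old male CreER 3 and 59.4 CPM in old male nmrHAS2 3, and had no count in the other 10 old libraries. Umod, the uromodulin of the thick ascending limb, was at 38.4 and 8.61 CPM and likewise had no count in the others. Leaving out only the CreER library thus leaves its counterpart in the nmrHAS2 group, so values without both are added where they differ. Liver transcripts, also picked after the values were seen, followed sex: Alb, serum albumin, was at 106 to 362 CPM in the 6 old female libraries and at 0.637 to 2.56 CPM in the 6 old male libraries, with both genotypes in each range.

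**Figure D1:**
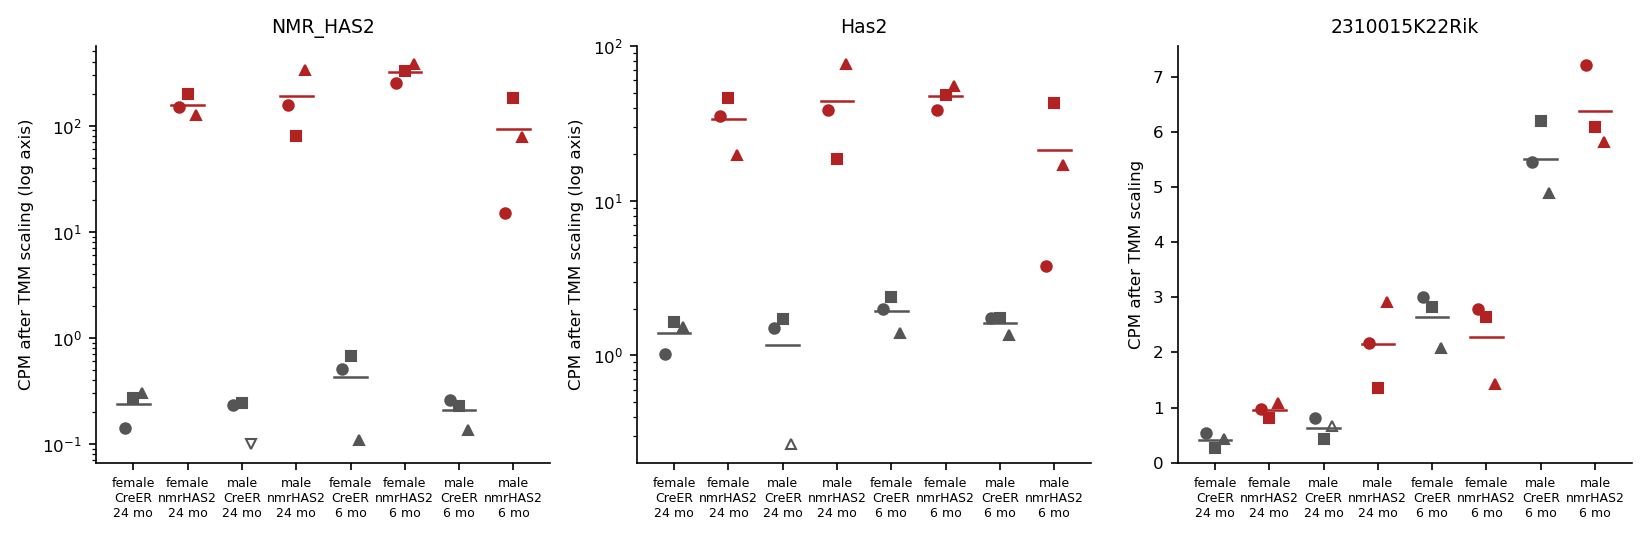
Level of the 3 genes called at 24 months in each muscle library, as CPM after TMM scaling (log axes for the first and second panel), by sex, genotype and age; circles, squares and triangles are replicates 1, 2 and 3, lines are means of 3 libraries, the open symbol is old male CreER 3, and the downward triangle marks the limit for its transgene count of 0. All nmrHAS2 libraries lie above all CreER libraries in the first and second panel at both ages, and in the third panel only at 24 months.

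The transgene separated the genotypes in every library, which checks the labels. In nmrHAS2 females it was at 149, 198 and 126 CPM and in nmrHAS2 males at 158, 79.5 and 337 CPM. In CreER it was at 0.141, 0.274 and 0.305 CPM in females and at 0.233 and 0.243 CPM in males, and in old male CreER 3 no read was counted, so that up to 0.1 CPM could have been missed (the limit of 3 counts after TMM scaling, counting error only). The lowest nmrHAS2 library lay far above the highest CreER library. The transcript rose with genotype by 9.73 ± 0.70 on the log2 scale (SE, 6 against 6 libraries, adjusted p = 3.2e-07), and by 9.45 ± 0.76 without old male CreER 3 (adjusted p = 3.71e-06). The rise was 9.28 ± 0.96 in females and 10.18 ± 1.02 in males, and the difference between the sexes did not pass (0.90 ± 1.23, adjusted p = 0.987).

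Has2, the mouse's own hyaluronan synthase 2, was at 35.1, 45.8 and 19.7 CPM in nmrHAS2 females and at 38.7, 18.6 and 76 CPM in nmrHAS2 males. CreER libraries were at 1.02, 1.64 and 1.52 CPM in females and at 1.51, 1.73 and 0.268 CPM in males, the last being old male CreER 3. The groups did not overlap. Has2 rose by 4.90 ± 0.52 (log2, adjusted p = 0.000108), and by 4.67 ± 0.53 without that library (adjusted p = 0.000429). Within nmrHAS2 muscle the Has2 count was 0.157 to 0.244 of the transgene count in each library. The naked mole-rat and mouse genes are orthologues, and whether reads of the transgene were counted for Has2 was not tested, so the level of Has2 is uncertain.

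With all libraries 3 genes rose and 0 fell of 18063 tested (0.0166%), by edgeR's quasi-likelihood test with Benjamini-Hochberg adjustment and a threshold of 0.05. At an unadjusted p under 0.05 there were 1199 genes (6.64%), 603 higher (3.34%) and 596 lower (3.3%), and DESeq2 called 6 rises (0.0337%) and 7 falls (0.0393%) of 17827, 0.0729% in all. Without old male CreER 3, 2 genes rose and 0 fell of 18361 (0.0109%), with 1298 genes at an unadjusted p under 0.05 (7.07%), 833 higher (4.54%) and 465 lower (2.53%). DESeq2 then called 16 rises (0.0878%) and 2 falls (0.011%) of 18223, 0.0988% in all. Of these 16 rises, 12 had their highest level among the 11 remaining old libraries in old male nmrHAS2 3, and 2 were also called by edgeR. Without both male libraries numbered 3, edgeR called 2 rises and 0 falls (0.0109%), with 679 genes at an unadjusted p under 0.05 (3.71%).

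The only called gene besides the synthases was 2310015K22Rik, a long non-coding RNA gene in RefSeq, which lies between Fam124b and Cul3 on chromosome 1. It was at 0.977, 0.82 and 1.09 CPM in nmrHAS2 females and at 2.18, 1.35 and 2.92 CPM in nmrHAS2 males. CreER libraries were at 0.536, 0.274 and 0.438 CPM in females and at 0.814, 0.425 and 0.67 CPM in males. The lowest nmrHAS2 library was just above the highest CreER library, so the groups did not overlap, and levels in nmrHAS2 were higher in males than in females without overlap. It rose by 1.48 ± 0.23 (log2, adjusted p = 0.0257). Without old male CreER 3 the change was 1.49 ± 0.25 and missed the threshold (adjusted p = 0.0674), and without both male libraries numbered 3 it was 1.35 (adjusted p = 0.231). Leaving out any one of the 12 libraries gave adjusted p-values from 0.00733 to 0.127, and a fit to the 24-month libraries alone gave 0.876. At 6 months its genotype change was -0.000935 ± 0.20 (adjusted p = 1), with 1.43 to 7.22 CPM over the 12 young libraries, and the difference of 1.48 ± 0.32 between the ages did not pass (adjusted p = 1, unadjusted p = 0.000164). As given below, library kind also differs between the ages.

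The promoter window of this gene is printed because it is the only called gene that does not encode a synthase. The window is chr1:80207684-80207983 on the plus strand of GRCm38.p6, as RefSeq gives it, 250 bases before the start in lower case and the first 50 transcribed bases in capitals. The sources used here do not name the build behind the deposited counts. Of its bases 44.3% are G or C, and it holds 2 CG pairs. Of 32851 promoter windows of the same length, 21.1% have a GC content at or below this one and 23.3% have as few CG pairs.
2310015K22Rik: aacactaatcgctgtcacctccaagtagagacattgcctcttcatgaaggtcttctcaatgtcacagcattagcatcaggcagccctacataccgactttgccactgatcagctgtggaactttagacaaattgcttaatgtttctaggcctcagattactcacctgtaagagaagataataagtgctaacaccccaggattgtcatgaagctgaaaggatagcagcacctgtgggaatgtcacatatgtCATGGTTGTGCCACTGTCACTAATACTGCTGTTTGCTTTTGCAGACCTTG

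Of the machinery that makes and removes hyaluronan, only Has2 was called, and whether its counts include reads of the transgene was not tested. Of 17 measured genes of synthesis and turnover 1 rose, Has2, and 0 fell, against 0.0166% called among all genes. Their median log2 change was 0.07 with all libraries and -0.01 without old male CreER 3, beside -0.03 and 0.001 over all genes tested. Has1 and Has3, the other synthases, were low in both genotypes, with 0.352 ± 0.343 against 0.312 ± 0.308 CPM for Has1 and 0.46 ± 0.211 against 0.477 ± 0.237 CPM for Has3 (SD, n = 6). Among the enzymes that supply the sugar nucleotides, Ugp2, which makes UDP-glucose, was at 771, 807 and 1050 CPM in nmrHAS2 females against 746, 589 and 577 CPM in CreER females, without overlap. Males were at 544, 644 and 629 CPM against 516, 717 and 348 CPM, and overlapped. Its change was 0.33 ± 0.18 (adjusted p = 0.726). Ugdh, which oxidises UDP-glucose to the acid that hyaluronan needs, changed by -0.13 ± 0.24 (adjusted p = 0.933). On the glucosamine branch Gfpt1, the rate-limiting enzyme, changed by 0.21 ± 0.12 and Uap1, which makes UDP-N-acetylglucosamine, by 0.20 ± 0.11 (adjusted p = 0.729 and 0.726).

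No enzyme of breakdown was called either. Cemip2, a cell surface hyaluronidase, was at 12.6 to 29 CPM in the nmrHAS2 libraries against 12.6 to 18.3 CPM in controls, with a change of 0.40 ± 0.17 (adjusted p = 0.726) and 0.32 ± 0.17 without old male CreER 3. Hyal1 and Hyal2, the lysosomal and the membrane-anchored hyaluronidase, changed by 0.08 ± 0.28 and 0.09 ± 0.10 (adjusted p = 0.976 and 0.871).

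Of 20 measured receptors and binding proteins 0 rose and 0 fell by edgeR, and DESeq2 called 0. At an unadjusted p under 0.05, 2 were lower and 0 higher (3.3 and 3.34% of all genes). Without old male CreER 3, 0 were lower and 1 higher (2.53 and 4.54%). Their median change was -0.12, and -0.23 without old male CreER 3. Without both male libraries numbered 3 it was -0.06, with 0 lower and 0 higher at that p (320 and 345 of 18015 among all genes). CD44 is the main hyaluronan receptor, and Cd44 was at 3.21 to 12.7 CPM with the transgene and at 5.56 to 14 CPM in 5 CreER libraries, against 52.7 CPM in old male CreER 3. Its change was -0.95 ± 0.41 with that library and -0.07 ± 0.24 without it (adjusted p = 0.726 and 0.964). Lyve1, the receptor of lymphatic vessels and of some macrophages, was at 2.22 to 25.6 CPM in the nmrHAS2 libraries against 3.32 to 43.8 CPM in controls, with the lowest value of each genotype in its male library numbered 3, and changed by -0.52 ± 0.45 (adjusted p = 0.821). The scavenger receptors Stab1 and Stab2 changed by -0.22 ± 0.22 and -0.30 ± 0.25 (adjusted p = 0.855 and 0.813).

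**Figure D2:**
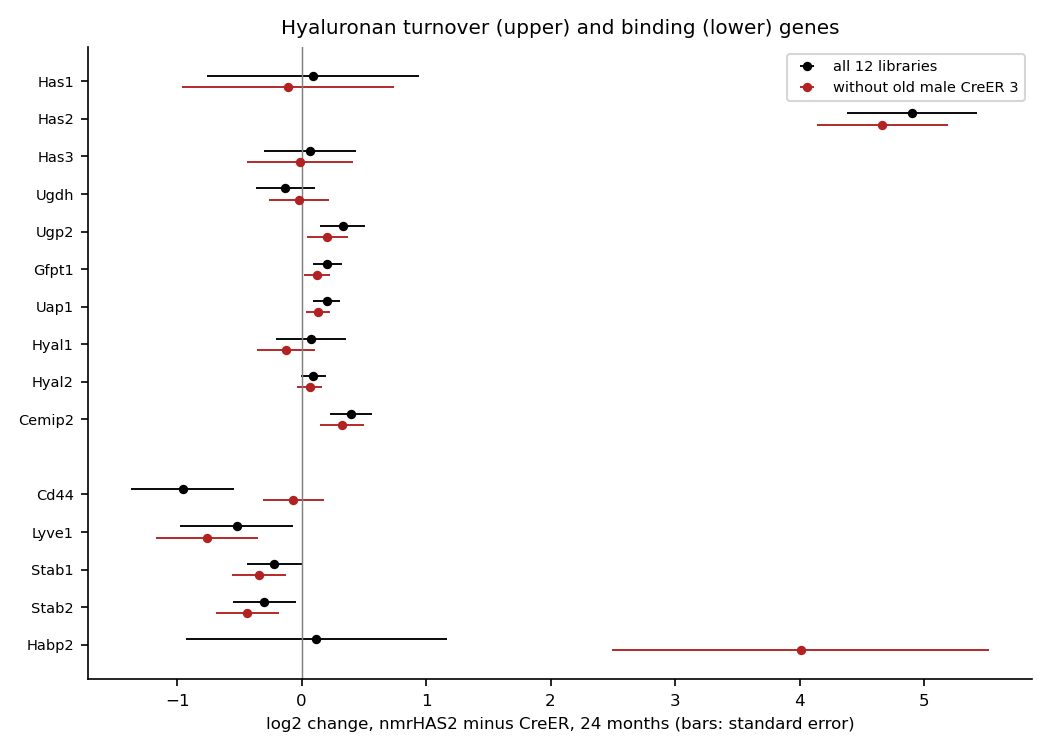
Fitted log2 change from CreER to nmrHAS2 at 24 months for the genes described here of hyaluronan synthesis and turnover (upper block) and of hyaluronan binding (lower block), with all 12 libraries (black) and without old male CreER 3 (red); bars are standard errors. Has2 stands at 4.90 and 4.67 and Cd44 moves from -0.95 to -0.07. Habp2 has a red value of 4.01 that rests on levels of at most 0.872 CPM in the 11 libraries other than old male CreER 3.

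Genes of energy metabolism had fitted changes mostly above 0 in nmrHAS2 muscle, and none of them passed the test. Of 44 nuclear genes of oxidative phosphorylation, which encode subunits of the respiratory chain and of ATP synthase, 0 rose and 0 fell by edgeR, all 44 had a fitted change above 0, and 14 were higher at an unadjusted p under 0.05. Among all genes 46.4% had a change above 0, or 50.2% without old male CreER 3, and 3.34% were higher at that p. The median change was 0.27, beside -0.03 over all genes. Without old male CreER 3 the median was 0.29, beside 0.001, and 21 were higher at an unadjusted p under 0.05 (4.54% of all genes). Without both male libraries numbered 3 it was 0.27 and 4 were higher at that p (1.91% of all genes). With library kind as a term the number was 20 (5.23%), and 4 (1.88%) when old male CreER 3 was also left out. The latter fit largely repeats the one without both male libraries numbered 3, since old male nmrHAS2 3 alone then sets the term for its kind. In the 8 old libraries numbered 1 and 2 the median was 0.12, beside 0.004 over all genes. There 36 of 44 were above 0 (51% of all genes) and 0 were higher at that p (380 of 17099 among all genes). These 8 libraries were chosen after seeing the data as the libraries of 1 kind by their RNAs without a poly(A) tail and their fractional counts. Old female CreER 3 and old female nmrHAS2 3 were of a further kind. Of their values above 0, 63.7 and 65.6% were not whole, against 24.7 to 26.2% in the 8.

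Summed over the list, females had 10690, 10560 and 13920 CPM in nmrHAS2 and 12180, 9260 and 8356 CPM in CreER. Males had 13820, 13750 and 16280 CPM in nmrHAS2 and 10490, 12620 and 12140 CPM in CreER. The male groups did not overlap, the female groups did, and the highest library of each sex in nmrHAS2 was replicate 3. In both sexes replicate 3 was of another library kind than the rest. Cyc1, the cytochrome c1 of complex III, was at 87.7, 87 and 158 CPM in nmrHAS2 females and 131, 125 and 231 CPM in nmrHAS2 males, against 103, 71.6 and 84.4 CPM and 89.3, 105 and 121 CPM in CreER. Its change was 0.49 ± 0.19 (adjusted p = 0.726), and 0.20 in the 8 libraries numbered 1 and 2. Sdhb, a subunit of complex II, changed by 0.39 ± 0.16 (adjusted p = 0.726) and by 0.42 ± 0.16 without old male CreER 3.

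The citric acid cycle list had 17 of 18 changes above 0 (46.4% of all genes) and 0 called. At an unadjusted p under 0.05, 11 were higher (3.34% of all genes) and 0 lower. Its median was 0.34, and 0.31 without old male CreER 3 (10 higher at that p, 4.54% of all genes). It was 0.29 without both male libraries numbered 3 (8 higher, 1.91% of all genes) and 0.20 in the 8 libraries numbered 1 and 2 (0 higher, 380 of 17099 among all genes). Idh3a, the catalytic subunit of the NAD-dependent isocitrate dehydrogenase, was at 261, 286 and 329 CPM in nmrHAS2 females against 299, 201 and 190 CPM in CreER females. Males were at 360, 345 and 521 CPM against 226, 301 and 285 CPM, without overlap. Its change was 0.47 ± 0.15 (adjusted p = 0.726). Dlst, of the 2-oxoglutarate dehydrogenase complex, changed by 0.36 ± 0.12 and Pdhb, of pyruvate dehydrogenase, by 0.32 ± 0.15 (adjusted p = 0.726 for both).

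Fatty acid oxidation had 21 of 23 changes above 0 (46.4% of all genes) with a median of 0.22, and 0 were called. Cpt2, the inner membrane carnitine transferase, changed by 0.34 ± 0.14 (adjusted p = 0.726). Glycolysis had 17 of 18 above 0 (46.4% of all genes) with a median of 0.34, and 0 called. The median was 0.23 without old male CreER 3 and 0.18 without both male libraries numbered 3. The members higher at an unadjusted p under 0.05 were 6, 5 and 0 in these 3 settings (3.34, 4.54 and 1.91% of all genes). Old male nmrHAS2 3 had 54120 CPM of glycolytic genes, against 24930 to 35330 CPM in the other nmrHAS2 and 20320 to 30150 CPM in the CreER libraries. Eno3, the muscle enolase, changed by 0.44 ± 0.17 and Pgk1 by 0.41 ± 0.16 (adjusted p = 0.726 for both).

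The 13 subunits encoded in mitochondrial DNA all had changes above 0 (46.4% of all genes), with a median of 0.49, but their size rested on 1 library. They summed to 230800 CPM in old male nmrHAS2 3, against 95570 to 120200 CPM in the other nmrHAS2 and 66620 to 127900 CPM in the CreER libraries. Without both male libraries numbered 3 the median was 0.16, and in the 8 libraries numbered 1 and 2 it was 0.02. With library kind as a term in the fit, the medians of nuclear respiratory, citric acid cycle, fatty acid oxidation, glycolytic and mitochondrially encoded genes were 0.28, 0.35, 0.24, 0.35 and 0.43. In the same fit without old male CreER 3 they were 0.26, 0.29, 0.23, 0.17 and 0.15. There the term for its kind rests on old male nmrHAS2 3 alone, so that fit largely repeats the one without both male libraries numbered 3.

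**Figure D3:**
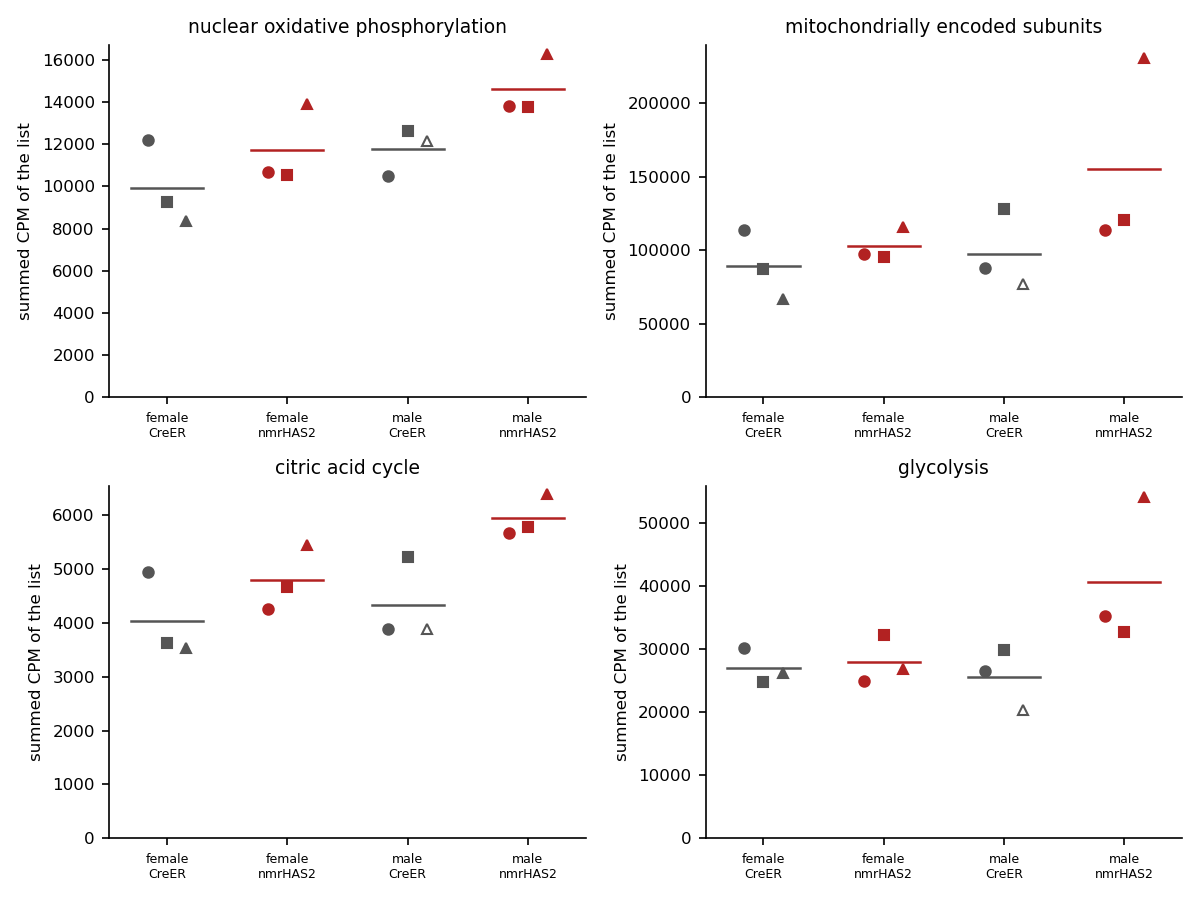
Summed CPM of 4 lists of energy genes in each 24-month muscle library, by sex and genotype; circles, squares and triangles are replicates 1, 2 and 3, lines are means of 3 libraries and the open triangle is old male CreER 3. In males the nmrHAS2 libraries lie above the CreER libraries for the nuclear respiratory, citric acid cycle and glycolytic lists, females overlap in all 4, and the mitochondrially encoded and glycolytic sums are highest in old male nmrHAS2 3 (230800 and 54120 CPM).

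Regulators and structural genes of the fibre were less uniform. Of 15 regulators of mitochondrial biogenesis 12 had changes above 0 (46.4% of all genes), with a median of 0.21 and 0 called. Without old male CreER 3 these were 10 (50.2% of all genes) and 0.12. Without both male libraries numbered 3 they were 8 (49% of all genes) and 0.08. Sirt3, the mitochondrial deacetylase, changed by 0.37 ± 0.15 (adjusted p = 0.726) and Esrrg, a nuclear receptor of oxidative muscle, by 0.59 ± 0.35 (adjusted p = 0.747). Fast fibre genes had a median of 0.22, 0.17 without old male CreER 3, and 0.01 without both male libraries numbered 3. Slow fibre genes had 0.10, 0.53 and 0.50 under the same 3 settings, and 0 members of either list were called. In the 8 libraries numbered 1 and 2 the slow and fast fibre medians were 0.11 and 0.03. Tnni1, the slow troponin I, was at 17.05 ± 13.9 against 16.65 ± 24.1 CPM (SD, n = 6), and at 6.86 ± 2.64 CPM in the 5 other CreER libraries, so the spread within a genotype exceeded the difference.

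Genes of muscle breakdown had a median below 0 and genes of the neuromuscular junction a median above 0, again with 0 called. Of 22 atrophy and protein breakdown genes 7 had changes above 0 (46.4% of all genes), with a median of -0.13. Without old male CreER 3 the count was 2 (50.2% of all genes) with a median of -0.22. Trim63, the ubiquitin ligase MuRF1, was at 481, 2170 and 945 CPM in nmrHAS2 females and 527, 807 and 336 CPM in nmrHAS2 males. CreER females were at 1470, 2220 and 2360 CPM and CreER males at 885, 1430 and 93.3 CPM. Its change was -0.64 ± 0.61, and -0.91 ± 0.56 without the last of these libraries, old male CreER 3 (adjusted p = 0.843 and 0.714). Fst, follistatin, which binds myostatin and activin, changed by -0.53 ± 0.23 (adjusted p = 0.726). Of 20 genes of denervation and the junction 16 had changes above 0 (46.4% of all genes), with a median of 0.25. At an unadjusted p under 0.05, 3 were higher (3.34% of all genes). Without old male CreER 3 the median was 0.16, with 15 above 0 (50.2% of all genes) and 1 higher at that p (4.54% of all genes). Myog, the myogenic factor that denervation induces, changed by 0.78 ± 0.36 and Chrnd, the acetylcholine receptor delta subunit, by 0.86 ± 0.38 (adjusted p = 0.726 for both).

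Immune lists had medians below 0 when all libraries were used, and most lay nearer 0 without old male CreER 3. The B and plasma cell list did not: its median was -0.07 with that library and 1.21 without it. In bulk muscle fewer cells of a type and less RNA per cell cannot be told apart. Of 23 macrophage markers 0 had a change above 0 (46.4% of all genes) and 10 were lower at an unadjusted p under 0.05 (3.3% of all genes). The median was -0.72 and 0 were called. Without old male CreER 3, 1 had a change above 0 (50.2% of all genes) and 0 were lower at that p (2.53% of all genes). The median was then -0.38. In the 8 libraries numbered 1 and 2 it was -0.11. The list summed to 973, 430 and 525 CPM in nmrHAS2 females and 458, 882 and 806 CPM in CreER females. Males had 444, 461 and 173 CPM in nmrHAS2 and 663, 415 and 1490 CPM in CreER, so the genotypes overlapped in both sexes. Tyrobp, a signalling adaptor of myeloid cells, changed by -1.07 ± 0.38 and by -0.41 ± 0.28 without old male CreER 3 (adjusted p = 0.726 and 0.733).

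Medians of several blood and dividing cell lists also moved with this library. Neutrophil markers had a median of -2.77 with it and 0.04 without it, platelet markers -2.47 and -0.08, and proliferation genes -1.73 and 0.07. Erythroid markers had -2.59 and -0.48. T and NK cell markers had -0.87 and 0.13, and 0.55 in the 8 libraries numbered 1 and 2. B and plasma cell markers had 6 of 13 changes above 0 with the library and 13 of 13 without it (46.4 and 50.2% of all genes). At an unadjusted p under 0.05, 0 were higher in either setting (3.34 and 4.54% of all genes). Inflammatory cytokines and chemokines had -0.89 and -0.08, antigen presentation -0.65 and -0.09, and interferon response genes -0.44 and -0.09. No member of these lists was called by edgeR with or without the library. With all libraries DESeq2 called Slc4a1, the red cell anion exchanger (adjusted p = 0.0429), whose edgeR change was -3.99 ± 1.03 with the library and -1.18 ± 0.65 without it (adjusted p = 0.726 and 0.702).

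Mast cell markers kept a median of about the same size without old male CreER 3. All 8 had changes below 0 (9686 of 18063 among all genes) and 5 were lower at an unadjusted p under 0.05 (3.3% of all genes). The median was -0.61. Without the library all 8 were still below 0 (8998 of 18063 among all genes), again 5 at that p (2.53% of all genes), with a median of -0.65. Without both male libraries numbered 3 the median was -0.48 and 2 were lower at that p (320 of 18015 among all genes). In the 8 libraries numbered 1 and 2 the median was -0.33. There 0 were above 0 (51% of all genes) and 1 was lower at that p (377 of 17099 among all genes). Summed levels were 54.5, 34.6 and 27.2 CPM in nmrHAS2 females and 31.4, 60.9 and 56.3 CPM in CreER females. Males had 23.6, 28.6 and 14.3 CPM in nmrHAS2 and 50.2, 30 and 44.4 CPM in CreER, without overlap. Ms4a2, the beta chain of the high-affinity IgE receptor, was at 0 to 0.555 CPM in the nmrHAS2 libraries against 0.452 to 1.24 CPM in controls, with the 0 in old male nmrHAS2 3. Its change was -1.46 ± 0.41 by edgeR (adjusted p = 0.726), and DESeq2 called it (-1.46, adjusted p = 0.0213). Tpsb2, a mast cell tryptase, changed by -0.62 ± 0.28 and -0.76 ± 0.27 without old male CreER 3 (adjusted p = 0.726 and 0.702).

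**Figure D4:**
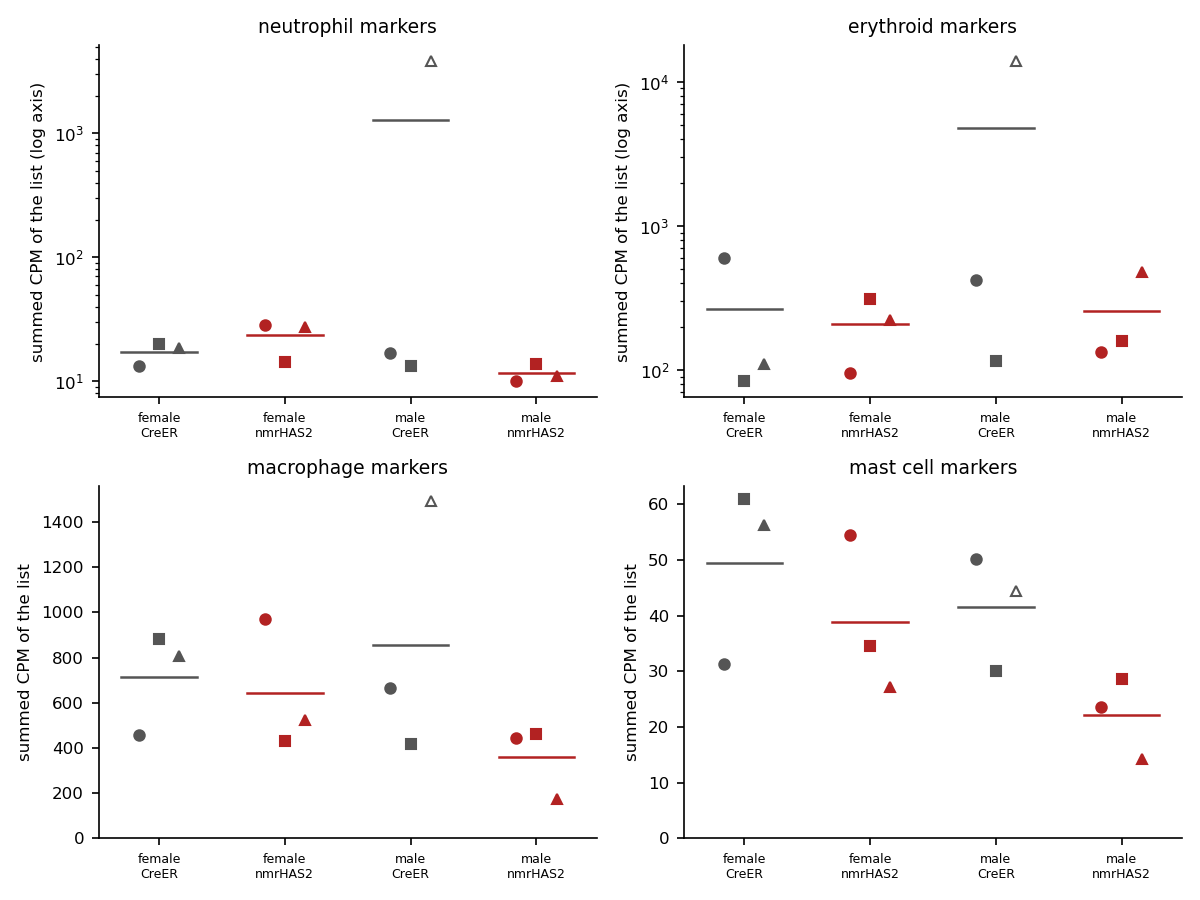
Summed CPM of markers of neutrophils, erythroid cells (both on log axes), macrophages and mast cells in each 24-month muscle library, by sex and genotype; circles, squares and triangles are replicates 1, 2 and 3, lines are means of 3 libraries and the open triangle is old male CreER 3. That library stands at 3809 CPM of neutrophil and 13810 CPM of erythroid markers, far above the other 11, while the mast cell sums in males separate the genotypes with it at 44.4 CPM.

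Matrix and stromal lists lay near or below 0. Collagens and fibrillar matrix genes had a median of 0.03 with all libraries and -0.09 without old male CreER 3. Matrix proteases and inhibitors had -0.18 and -0.16, and fibro-adipogenic progenitor markers -0.12 and -0.19. Dcn, decorin, a proteoglycan of the collagen fibril, was at 516 ± 168 against 633 ± 234 CPM (SD, n = 6), a change of -0.30 ± 0.29 (adjusted p = 0.852). Complement genes had a median of -0.36 and -0.39, with 5 and 0 lower at an unadjusted p under 0.05 (3.3 and 2.53% of all genes). The median was -0.26 without both male libraries numbered 3 and -0.13 in the 8 libraries numbered 1 and 2. C1qa, a chain of C1q made by macrophages, changed by -0.82 ± 0.34 with all libraries and -0.53 ± 0.33 without old male CreER 3 (adjusted p = 0.726 and 0.714). No member of these 4 lists was called.

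**Figure D5:**
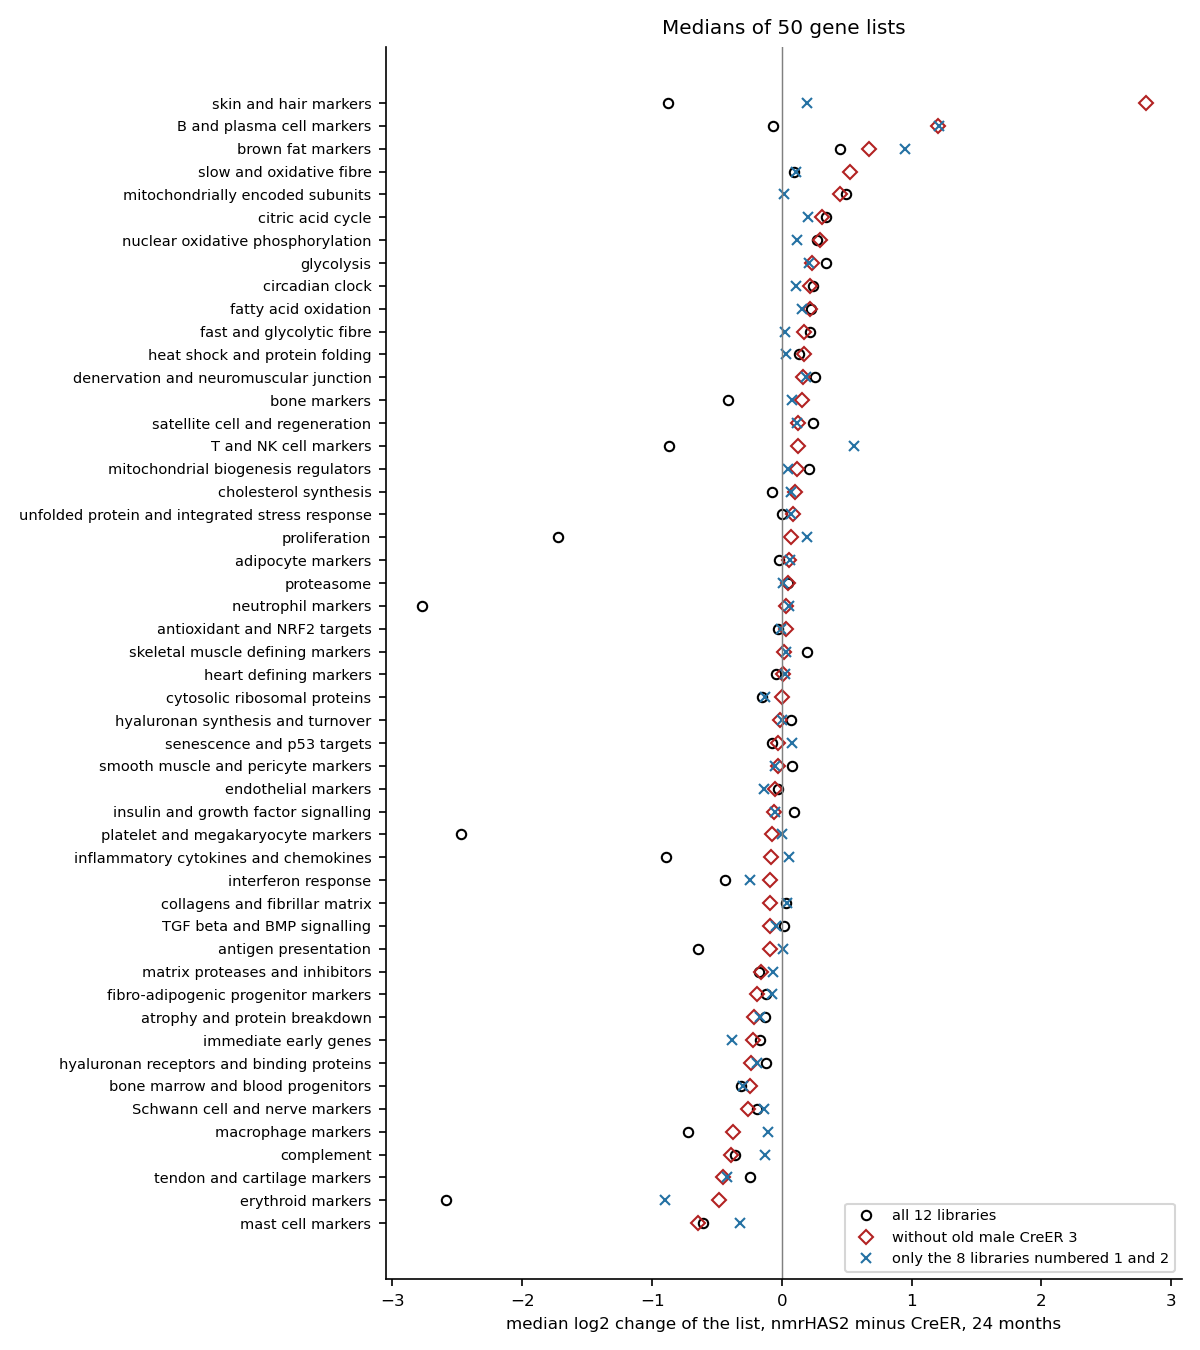
Median log2 change from CreER to nmrHAS2 at 24 months for 50 gene lists, with all 12 libraries (black circles), without old male CreER 3 (red diamonds) and in the 8 old libraries numbered 1 and 2 (blue crosses). Neutrophil, erythroid, platelet and proliferation lists lie between -2.77 and -1.73 with all libraries and between -0.48 and 0.07 without that library, while the nuclear respiratory and citric acid cycle lists stay at 0.12 to 0.34 in all 3 settings and the mitochondrially encoded list goes from 0.49 to 0.02.

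Outside the lists, edgeR called no gene besides the transgene and 2310015K22Rik. Flad1, the FAD synthase, was at 19.9, 18 and 22 CPM in nmrHAS2 females and 22.6, 24.1 and 27 CPM in nmrHAS2 males, against 16.7, 14.6 and 15.8 CPM and 16.9, 18.1 and 16.7 CPM in CreER. The groups overlapped only at 18 and 18.1 CPM. Its change was 0.43 ± 0.10 and 0.41 ± 0.10 without old male CreER 3 (adjusted p = 0.726 and 0.702), and DESeq2 called it with all libraries (adjusted p = 0.0193). Zfp454, a zinc finger protein, was at 1 to 2.14 CPM in the nmrHAS2 libraries against 0.59 to 0.959 CPM in controls without overlap, a change of 1.01 ± 0.24 (adjusted p = 0.726). Among the lower genes Gins1, a subunit of the replicative helicase complex, was at 1.05 to 1.5 CPM in the nmrHAS2 libraries against 1.6 to 4.63 CPM in controls without overlap, a change of -0.99 ± 0.24 (adjusted p = 0.726). Rarg, the retinoic acid receptor gamma, was at 5.62 to 7.64 CPM against 7.91 to 9.44 CPM, also without overlap, a change of -0.42 ± 0.12 (adjusted p = 0.726). Ltf, lactoferrin of neutrophils, is 1 of the 5 genes by which old male CreER 3 was singled out, so its values are a description only. Its change was -3.26 ± 1.96 with all libraries and 4.54 ± 0.99 without old male CreER 3 (adjusted p = 0.750 and 0.702). That library had 339 CPM, and only through it did Ltf reach the mean of 1 CPM for naming. The others of both genotypes had at most 0.65 CPM. The 5 other CreER libraries were at 0 to 0.0762 CPM, near or below the limit of 3 counts. In all, 14 genes had every nmrHAS2 library above every CreER library (0.0775%) and 7 had every one below (0.0388%), and without old male CreER 3 these were 45 (0.249%) and 50 (0.277%).

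By edgeR no gene passed for a difference of its genotype change between the sexes or the ages. Library kind went with age and sex. The 6-month males had almost no counts on RNAs lacking a poly(A) tail. In the 6-month females most values above 0 were not whole. The old libraries numbered 1 and 2 had neither trait, so age and library kind cannot be told apart here. The old libraries numbered 3 differed in kind between the sexes. Between sexes 0 genes passed of 18063 by edgeR, with 771 at an unadjusted p under 0.05 (4.27%), and DESeq2 called 7 (0.0393%). Without old male CreER 3 edgeR again called 0, with 457 at an unadjusted p under 0.05 (2.49%). Map2k6, a kinase that activates p38, had the smallest p of the sex difference, with -0.50 in females and 0.84 in males (adjusted p = 0.955). Between ages 0 genes passed, with 335 at an unadjusted p under 0.05 (1.85%), and DESeq2 called 18 (0.101%). Without that library edgeR called 0, with 1246 at an unadjusted p under 0.05 (6.79%). At 6 months, in 12 other libraries, edgeR called only the transgene (9.12 ± 0.67) and Has2 (4.16 ± 0.50), both higher in nmrHAS2 (adjusted p = 5.29e-07 and 0.000758, 0.0111% of 18063). There 1017 genes had an unadjusted p under 0.05 (5.63%), and DESeq2 called 46 (0.258%). The respiratory, citric acid cycle and macrophage lists had medians of 0.07, 0.18 and -0.60 there, beside 0 over all genes. Atrophy genes had 0.29 at 6 months, opposite in sign to 24 months, and B and plasma cell markers had -3.16, against -0.07 at 24 months and 1.21 without old male CreER 3. These list differences between ages were not tested.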

How the data were processed

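RNA was extracted from frozen muscle with Trizol, with a DNase step and column purification, per the labels' protocols. Per the submitters' processing notes, the authors used Trim Galore 0.6.5 and Salmon 1.4.0. The values the authors deposited are expected counts for 40946 genes. The sources used here do not name the genome build or annotation. Expected counts were rounded to whole numbers.

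The 24 muscle libraries, about 18000000 to 109600000 counts each, were fitted together in edgeR 4.0.16 (R 4.3.3) with 8 group means of age, sex and genotype, 3 libraries each, TMM scaling and filterByExpr. Contrasts weighted the sexes equally. The quasi-likelihood test was 2-sided, with Benjamini-Hochberg adjustment over all genes tested (threshold 0.05). A standard error is the size of the log2 change over the square root of its F statistic. Levels are CPM after TMM scaling. Standard deviations are over libraries.

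The 50 gene lists were described by counts and medians, with no list test. Named are Has2, all hyaluronan genes, every called gene, the 10 smallest p in each direction with and without old male CreER 3 (mean of at least 1 CPM, no Gm, Rik or Y-linked symbols), up to 4 members per list and 5 per difference. The comparison, lists and rule were chosen with earlier results of these data known. Alternatives were RLE size factors, no filter, DESeq2 1.42.0, a replicate block, the 24-month libraries alone, library kind as a term and each old library left out. Added after seeing the data were fits without both old male libraries numbered 3 and with only the 8 old libraries numbered 1 and 2. Library kind, which no label names, was set by 2 cut-offs: 1% of counts on RNAs lacking a poly(A) tail, and 40% of the values above 0 not being whole. 0 libraries held identical values. The test was tried on simulated counts. Some genes of the lists and of the naming rule are not reported here by name.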

Additional observations from a re-analysis of the deposited data

Results flagged for a closer look

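In each genotype, the 24-month libraries were checked for a highest or lowest value far from the other 5 (Dixon's test at the 95% level), over the summed CPM of each list, the 5 neutrophil genes and the called genes. Of 108 such checks 30 stood out, 20 of them in old male CreER 3. This library had been singled out by its neutrophil genes, so its 2 neutrophil sums are a description only. Leaving out the neutrophil sums, 28 of 104 checks stood out, 18 of them in that library. These counts cannot be set against chance. The sums of a library share its total and are not independent, and each genotype mixes sexes and library kinds. The other sums of old male CreER 3 are therefore a description too. In that library, beside the 3810 CPM of neutrophil markers and 3090 CPM of the 5 neutrophil genes, erythroid markers were at 13800 CPM, platelet markers at 401, proliferation genes at 708, T and NK cell markers at 74.6, B and plasma cell markers at 166, bone markers at 90.7 and skin and hair markers at 84.5 CPM. Also highest there were antigen presentation (2510 CPM), cytosolic ribosomal proteins (9520), antioxidant genes (2220) and cholesterol synthesis (299). Lowest there were skeletal muscle markers (26100 CPM), collagens (1020), mitochondrial biogenesis regulators (238), clock genes (333), senescence and p53 targets (740), insulin signalling (740) and TGF beta and BMP genes (290 CPM).

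Old male nmrHAS2 3 was highest of its genotype in mitochondrially encoded subunits (231000 CPM), glycolysis (54100) and immediate early genes (768 CPM). It was lowest in matrix proteases (293 CPM), TGF beta and BMP genes (392), fibro-adipogenic progenitor markers (921) and Schwann cell and nerve markers (50.1 CPM). Single lists stood out in the nmrHAS2 females: atrophy genes in replicate 2 (5960 CPM), cytokines and chemokines in replicate 1 (346) and endothelial markers in replicate 3 (413 CPM).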

How the results depend on the processing

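The count of called genes at 24 months stayed at 2 or 3 rises and 0 falls with RLE size factors, no filter, library kind as a term, the 24-month libraries alone, both added fits, and any 1 of the 12 old libraries left out (2 to 3). Only DESeq2 gave more: 13 with all libraries and 18 without old male CreER 3, 7 for the difference between sexes, 18 for that between ages and 46 at 6 months. With the replicate number as a block the counts were 3 with all libraries and 3 without old male CreER 3. Same-numbered libraries did not all deviate together: their correlations were 0.0777, 0.0827 and 0.415 in old females and 0.514, 0.346 and 0.585 in old males, -0.107, -0.0584 and 0.443 in young females and 0.192, 0.128 and 0.225 in young males, so the numbers were not taken as pairs for the contrast over both sexes. Old and young males alone had every same-number value over 0.1, and only in young males did each library correlate best with its own number. With the block and without old male CreER 3, 2310015K22Rik was called (1.37, adjusted p = 0.0251). In that fit old male nmrHAS2 3 is alone in its block and adds nothing to the change. The change thus largely repeats the 1.35 without both male libraries numbered 3, which did not pass. Of 50 list medians, 17 changed sign without old male CreER 3, 12 without both male libraries numbered 3, 17 in the 8 libraries numbered 1 and 2, and at most 6 under any other setting; the cause was not tested. Nuclear respiratory genes had medians of 0.12 to 0.36 over these alternatives, citric acid cycle genes 0.20 to 0.43, macrophage markers -0.98 to -0.11 and mast cell markers -0.80 to -0.33. After TMM scaling 3 counts correspond to 0.0279 to 0.124 CPM, and lower levels could not be told from 0.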
